A study of Homo sapiens with 18 samples.

Results

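The comparison set 3 PacBio Iso-Seq libraries of the lung cancer cell line H1975 against 3 Illumina short-read libraries of the same line. These 6 libraries were chosen by their platform and cell line labels from the 18 of the whole series, and no measured value entered the choice. Of 58676 genes in the PacBio files and 60617 in the Illumina files, 58444 could be joined by Ensembl gene ID with the version dropped. Synthetic spike-in RNAs (sequins) were left out.

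H1975 (NCI-H1975) is an established epithelial line from a human lung adenocarcinoma, and it is the only line in both groups. The libraries carried no drug treatment in their labels. The series' design text gives 3 independent RNA samples of the line, each profiled on every platform, so libraries with the same replicate number came from the same RNA. Per the labels' protocols, total RNA was the input of the PacBio libraries, whose cDNA was selected for sizes near 2 kb, amplified with 12 PCR cycles and run on a Sequel II. The Illumina libraries started from 3.75 ng of mRNA, were made with a directional kit and 11 PCR cycles, and were read as pairs of 75 nt on a NextSeq 500. Input, enrichment, size selection, amplification and sequencer changed together and cannot be told apart.

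In Iso-Seq, reverse transcriptase copies polyadenylated RNA into cDNA and each cDNA is read from end to end, so that its length does not multiply the number of reads. In short-read RNA-seq the RNA or cDNA is broken into fragments, so that a long transcript gives more fragments than a short one at the same number of molecules. The comparison was therefore made on 2 scales. On the count scale a gene's PacBio counts were set against its Illumina counts. On the per-length scale the Illumina counts were first divided by transcript length, while PacBio counts were left undivided.

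The clearest departure between the platforms concerned pairs of genes that share exon sequence, and microRNA genes inside the exons of a host gene show it in the plainest form. A microRNA hairpin is cut from a longer primary transcript, and the mature strand recognises its targets through its seed. In 4 examples the counts belong to the annotated hairpins, of 67 nt (MIR4260), 118 nt (MIR671), 98 nt (MIR936) and 66 nt (MIR6852). The mature strands are shorter and were not counted separately. The sequence of a mature strand of each hairpin is from RefSeq (GRCh38.p14), with the seed (bases 2 to 8) in capitals.
hsa-miR-4260: cUUGGGGCauggaguccca
hsa-miR-671-3p: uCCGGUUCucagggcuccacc
hsa-miR-936: aCAGUAGAgggaggaaucgcag
hsa-miR-6852-3p: uGUCCUCUguuccucag

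MIR4260, a hairpin of 67 nt at chr1:209623444-209623510 on the minus strand (GRCh38), had 97, 94 and 71 PacBio counts in replicates 1 to 3, against 546, 605 and 548 Illumina counts. Its host LAMB3, which encodes a chain of the epithelial basement membrane protein laminin-332, had 98, 94 and 71 PacBio counts, against 25009, 26957 and 23513 Illumina counts. The PacBio counts of hairpin and host thus differed by at most 1 in any library, whereas the Illumina counts of the host were far above those of the hairpin. MIR671 had 14, 13 and 9 PacBio counts, against 244, 238 and 222 Illumina counts. Its host CHPF2, a chondroitin polymerising factor, had the same 14, 13 and 9 PacBio counts, against 3538, 3453 and 3102 Illumina counts. MIR936 had 7, 14 and 14 PacBio counts, against 37, 41 and 44 Illumina counts. Its host COL17A1, a hemidesmosomal collagen, had 9, 14 and 15 PacBio counts, against 5449, 5697 and 5283 Illumina counts. MIR6852 had 15, 20 and 27 PacBio counts, against 258, 218 and 230 Illumina counts, beside 24, 21 and 30 PacBio counts of its host TLN1, which encodes the focal adhesion protein talin. Of 1877 microRNA genes, 111 had a PacBio count, and 103 of these share an exon with another gene. These counts can therefore not be read as levels of microRNA.

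The libraries differed greatly in depth. Gene counts summed to 41147, 52898 and 50162 in the PacBio libraries, against 36718071, 39946735 and 33152401 in the Illumina libraries, so that 1 PacBio count was worth 18.9 to 24.3 CPM (counts scaled to the same library total). Between PacBio replicates 2 and 3 the differences were under the sampling noise, with a mean chi-square of 0.551 per gene, whereas replicate 1 differed from them with 1.33 and 1.50 and the Illumina pairs gave 3.34 to 3.85. Replicates 2 and 3 of PacBio were therefore counted as 1 sample in the main tests. The 6 epithelial markers EPCAM, CDH1, KRT7, KRT8, KRT18 and KRT19 were all detected by PacBio, with 93, 78 and 70 counts in sum, against 162358, 174159 and 152889 in Illumina. The lung lineage markers NKX2-1, SFTPB and NAPSA were at 0 in PacBio, against 1081 to 1248 summed Illumina counts. The hematopoietic and fibroblast markers were also at 0 in PacBio, against 293 to 368 and 170 to 177 summed Illumina counts. The endothelial markers had 1 count in each PacBio library, against 243 to 320 in Illumina. In Illumina the hematopoietic markers summed to 8.8 to 9.9 CPM and the fibroblast markers to 4.3 to 5.2, below the worth of 1 PacBio count. A 0 in PacBio therefore does not show absence.

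Detection was compared at full and at reduced Illumina depth. PacBio libraries held 10081, 11331 and 10974 genes with at least 1 count, against 36641, 38943 and 35904 in the Illumina libraries at full depth. Illumina libraries thinned at random to totals of 47752, 48123 and 48342, which match the PacBio totals only roughly, held 11478, 11576 and 11445 such genes. Thus most of the gap in detected genes was gone at this depth. The genes were in part different ones: replicate 1 shared 7385 genes, which were 73.26% of its PacBio genes and 64.34% of its thinned Illumina genes. The shares were 70.19% and 68.70% for replicate 2, and 71.25% and 68.32% for replicate 3. The 10 leading genes held 2.58% to 3.39% of PacBio counts, against 6.59% to 6.66% of Illumina counts. Chromosome M gave 8 of the 10 leading genes in each Illumina library and none in PacBio. With chromosome M left out, the 10 leading genes held 2.58%, 3.21% and 3.39% of PacBio counts, against 3.15% in each Illumina library, so that the contrast was carried by chromosome M.

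Over all genes, edgeR's quasi-likelihood test called 1736 of 24494 genes higher in PacBio on the count scale (7.09%) and 4151 lower (16.9%), at an adjusted p below 0.05. On the per-length scale it called 1972 of 24384 genes higher (8.09%) and 6733 lower (27.6%). Both scales called 1050 genes higher and 3137 genes lower, while 118 genes were higher by count and lower per length, and 24 the other way. Of the genes tested on the count scale, 11538 (47.1%) had no PacBio count at all, and 9663 of these were not called, so that for them a difference was not detectable at this depth. These ratios are relative to a scaling by the trimmed mean of M values (TMM). With library totals in place of TMM, the median ratio of genes with 10 or more PacBio counts moved up by 0.72 on the log2 count scale and by 1.71 on the per-length scale. The share of higher genes among all calls was then 60.1%, against 29.5% with TMM, and 71.1% per length, against 22.7% with TMM. Calls below are those with TMM unless library totals are named.

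Calls differed between gene classes. Long non-coding RNA genes took 14.5%, 15.8% and 15.5% of PacBio counts, against 8.13% to 8.20% of Illumina counts. Of 5353 such genes tested, 867 were called higher (16.2%) and 376 lower (7.02%) by count, and 1082 higher and 203 lower with library totals. Per length the order turned, with 444 higher and 1382 lower, and turned back with library totals to 890 higher and 458 lower. Over all classes, 271 genes with no shared exon were called higher by count. Most of the 867 long non-coding RNA genes called higher therefore share an exon with another gene, and their counts are uncertain. MicroRNA genes took 0.807% to 0.897% of PacBio counts, against 0.164% to 0.167% of Illumina counts, and 64 of 300 tested were called higher by count and 16 lower. Per length 4 were higher and 244 lower (24 and 140 with library totals). Processed pseudogenes, intronless copies of mRNAs, took a smaller share in PacBio. They took 0.216%, 0.340% and 0.327% of PacBio counts, against 4.33% to 4.40% of Illumina counts. Of 2371 tested, 95.9% had no PacBio count, 19 were called higher and 431 lower (21 and 302 with library totals). They are near copies of their parent genes, and how reads matching several places were counted was not given in the sources used here, so the counts of individual pseudogenes are uncertain.

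Genes that share exon sequence with another gene carried most of the higher calls. They made up 53.8% of the tested genes and 84.4% of the genes called higher, 1465 of 13189 (11.1%), whereas 271 of 11305 genes with no shared exon were called higher (2.40%). The shares called lower were close, at 16.7% of genes with a shared exon and 17.2% of those without. With library totals 18.4% of genes with a shared exon and 6.34% of those without were called higher. Among gene pairs with at least 30 PacBio counts in both members, 61 of 179 pairs on opposite strands (34.1%) and 76 of 291 pairs on the same strand (26.1%) had identical counts in all 3 PacBio libraries. Since exact equality is more likely at low counts, the totals over 3 libraries were also compared. On opposite strands the smaller total was at least 90% of the larger in 124 pairs in PacBio, against 13 pairs in Illumina, and on the same strand in 146 pairs in PacBio, against 63 in Illumina. The pairs were kept by the PacBio counts of both members, with no condition on Illumina. That choice favours near-equal totals in PacBio, so the platforms were not compared on equal terms here. The kit of the Illumina libraries keeps the strand, but for neither platform was the strand setting of the counting given, so counts of genes that overlap another gene are uncertain.

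**Figure D1:**
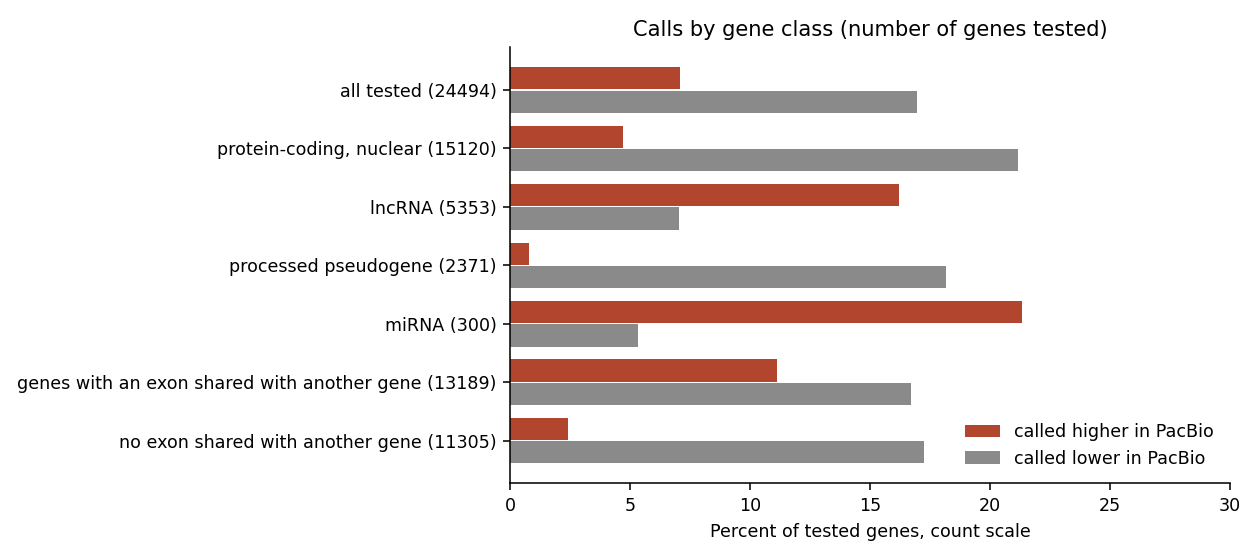
Percent of tested genes called higher (red) or lower (grey) in PacBio than in Illumina on the count scale with TMM scaling, by gene class, with the number of tested genes in brackets. Genes that share an exon with another gene reached 11.1% higher, against 2.40% of genes without, while both had about 17% lower.

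The 10 protein-coding genes with the highest ratios were all of this kind. Each shares an exon with a gene on the opposite strand, the PacBio counts of the 2 partners differed by at most 6 in any library, and the partner had 7.29 to 46.03 times as many Illumina counts. MYH7B, a slow myosin heavy chain gene, had 14, 15 and 11 PacBio counts, against 74, 84 and 68 Illumina counts, a log2 ratio of 6.35 ± 0.36 (SE, edgeR adjusted p = 3.62e-14). Its partner TRPC4AP had 14, 15 and 12 PacBio counts, against 3303, 3794 and 3306 Illumina counts. SPNS2, a sphingosine-1-phosphate transporter, had 11, 13 and 18 PacBio counts, against 273, 266 and 228 Illumina counts, and its partner MYBBP1A had the same 11, 13 and 18 PacBio counts. MROH8 likewise had the 24, 14 and 20 PacBio counts of RPN2, a subunit of the oligosaccharyltransferase, against 376, 477 and 427 Illumina counts of its own. MIEN1, at chr17:39728496-39730532 on the minus strand, had 22, 25 and 20 PacBio counts, against 645, 698 and 568 Illumina counts, and lies across the end of the receptor tyrosine kinase gene ERBB2 with 25, 25 and 21 PacBio counts. The others were CFAP119, APOM, PDZD7, CCDC103, HARBI1 and SMARCD3, with log2 ratios of 3.59 to 5.91.

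Among genes with no shared exon, which were looked at after the values were seen, the higher ratios were smaller. SUGP1, a splicing-associated protein, had 8, 18 and 13 PacBio counts, against 833, 946 and 716 Illumina counts, a log2 ratio of 2.85 ± 0.29 (edgeR adjusted p = 9.66e-09). UHRF1, which reads hemimethylated DNA, had 8, 12 and 10 PacBio counts, against 1300, 1314 and 972 Illumina counts, a ratio of 1.95 ± 0.33. GALK1, the galactose kinase, had 18, 25 and 25 PacBio counts, against 3595, 3472 and 3053 Illumina counts, a ratio of 1.63 ± 0.21. ABHD12, a lysophospholipase, had 46, 32 and 54 PacBio counts, against 8270, 8461 and 8184 Illumina counts, a ratio of 1.29 ± 0.16. These 4 genes were picked among genes called higher. For each, the CPM of all 3 PacBio libraries lay above that of the 3 Illumina libraries, which that choice favours.

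Among protein-coding genes with 10 or more PacBio counts, the 10 lowest ratios were those of RPL28, FTH1, GAPDH, ACTB and 6 others. ACTB, cytoplasmic beta-actin, had 38, 40 and 32 PacBio counts, against 199683, 221012 and 172587 Illumina counts. In CPM this was 924, 756 and 638 in PacBio, against 5438, 5533 and 5206 in Illumina, a log2 ratio of −3.54 ± 0.11 (edgeR adjusted p = 1.68e-20). The groups did not overlap, which the choice among the 10 lowest ratios favours. ACTB shares no exon with another gene. GAPDH, the glycolytic glyceraldehyde-phosphate dehydrogenase, had 11, 8 and 7 PacBio counts, against 69656, 68115 and 60981 Illumina counts, a ratio of −4.05 ± 0.18. FTH1, the ferritin heavy chain, had 15, 9 and 7 PacBio counts, against 79831, 91342 and 70744 Illumina counts, a ratio of −4.07 ± 0.17. RPL28, a protein of the large ribosomal subunit, had 2, 6 and 5 PacBio counts, against 38938, 42848 and 35065 Illumina counts, a ratio of −4.28 ± 0.22. The 6 others were RACK1, BEST1 (which overlaps FTH1), PPIA, VIM, LDHA and CALR, at −4.07 to −3.37. Per length the lowest were RACK1, FTH1, GAPDH, the small heat shock protein gene HSPB1 and the ubiquitin gene UBB, at −5.47 to −4.98.

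The 10 genes with the most PacBio counts include 7 protein-coding genes, and MIR4260, DELEC1 and ENSG00000258959, which overlap LAMB3, TNC and DYNC1H1 among those 7. Of the 7, only FN1 and ITGA3 share no exon with another gene. FLNA, the actin crosslinker filamin A with a transcript of 8507 nt, had 313, 788 and 812 PacBio counts, against 154276, 167832 and 156540 Illumina counts. In CPM this was 7607, 14897 and 16188 in PacBio, against 4202, 4201 and 4722 in Illumina. PacBio replicate 1 was thus far below replicates 2 and 3, although all 3 lay above Illumina. FLNA was not called on the count scale (0.77 ± 0.36, edgeR adjusted p = 0.284) and was called higher per length (2.27 ± 0.35, adjusted p = 0.0198). FN1, the matrix protein fibronectin, had 92, 152 and 170 PacBio counts, against 79070, 78946 and 70490 Illumina counts, and was called higher per length only (1.19 ± 0.12). MYH9, non-muscle myosin IIA, had 126, 127 and 142 PacBio counts, against 72860, 79768 and 67407 Illumina counts. It was called lower by count with TMM (−0.27 ± 0.08, edgeR adjusted p = 0.0175) and the sign turned with library totals (0.46), while per length it was higher (1.04 ± 0.09). LAMB3 was called higher on both scales, at 0.70 ± 0.11 by count (edgeR adjusted p = 1.24e-05) and 1.11 ± 0.12 per length. ITGA3, the laminin receptor integrin alpha 3, had 84, 92 and 73 PacBio counts, against 40480, 42532 and 39422 Illumina counts, with a count ratio of −0.09 ± 0.11 that was not called.

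**Figure D2:**
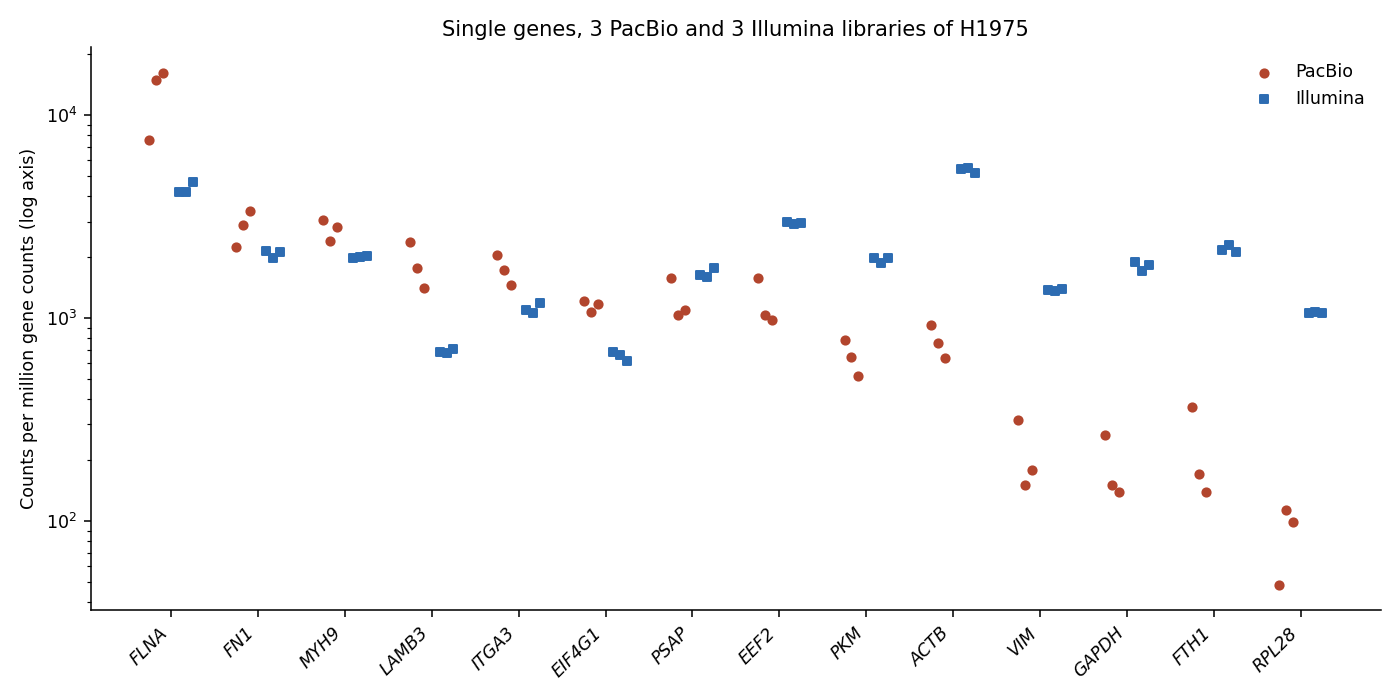
CPM (log axis) of 14 named genes in each PacBio library (red circles) and each Illumina library (blue squares) of H1975. FLNA lay between 7607 and 16188 CPM in PacBio and between 4201 and 4722 in Illumina, while ACTB lay between 638 and 924 in PacBio and between 5206 and 5533 in Illumina.

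TNC, the gene of the matrix protein tenascin C, had a partner with near-equal counts on both platforms. TNC had 38, 86 and 103 PacBio counts, against 24809, 26550 and 22351 Illumina counts. DELEC1, on the opposite strand of the same locus, had the same 38, 86 and 103 PacBio counts and almost the same 24849, 26605 and 22401 Illumina counts. Their count ratios were therefore alike, at 0.48 ± 0.21 each and not called. Per length they parted, to 1.98 ± 0.20 for TNC and −1.02 ± 0.17 for DELEC1, since their annotated transcripts are of 8500 and 1064 nt and the length enters the ratio.

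Ratios differed between bands of transcript length. To choose expressed genes without either platform, nuclear protein-coding genes with at least 20 CPM in the 3 Oxford Nanopore (ONT) libraries of H1975 were banded by transcript length. The median ratio in each replicate pair was taken from CPM by library totals with 0.5 added to each count. Below 600 nt, 55.3% of 170 genes had a PacBio count and the median count ratio was −0.77, −0.83 and −1.02 in pairs 1 to 3. From 2000 to 3000 nt, 90.8% of 721 genes had one, with medians of 0.44, 0.07 and 0.05. From 4000 to 6000 nt, 91.9% of 505 genes had one, with medians of 0.27, 0.18 and 0.13. At 10000 nt or more, 76.6% of 107 genes had one, with medians of −1.05, −0.61 and −0.47. The median count ratio was thus below 0 at both ends of the length range in all 3 pairs, with level not held fixed. The bands also differ in level, with a median of 156 ONT CPM below 600 nt. Within 20 to 50 ONT CPM, 57.6% of 33 genes below 600 nt had a PacBio count, and the medians there were 0.71, 0.34 and 0.26. At that level the medians of 151 genes of 600 to 1000 nt were −0.13, −0.34 and −0.38. Those of 248 genes of 1000 to 1500 nt were 0.34, 0.045 and −0.21. Those of 61 genes of 10000 nt or more were −0.79, −0.21 and −0.10. Below 1000 nt the median gene had 1 PacBio count over the 3 libraries, both at that level and over all banded genes. Its ratio thus depends on the 0.5 added, and the sign of the bands below 1000 nt was not interpreted in either set. Over all genes of at least 20 ONT CPM, the per-length medians went up with every band. They began at −2.35, −2.38 and −2.54 below 600 nt and ended at 2.20, 2.59 and 2.56 at 10000 nt or more. Dividing Illumina counts by length itself raises this ratio with length. The rise is therefore in part built into the scale and is not a separate observation.

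**Figure D3:**
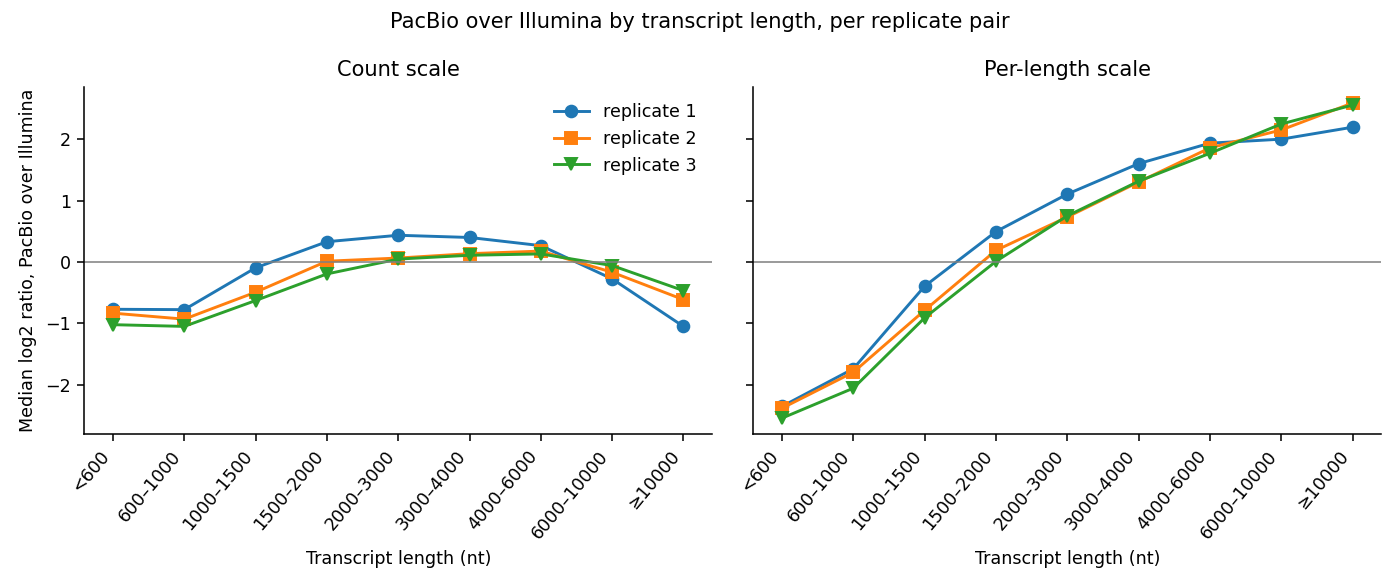
Median log2 ratio of PacBio over Illumina by transcript length (nt) for each replicate pair, on the count scale (left) and the per-length scale (right), for nuclear protein-coding genes with at least 20 ONT CPM and CPM by library totals. On the count scale the medians were below 0 in all 3 pairs under 1500 nt and from 6000 nt. On the per-length scale they went up with every band, a rise in part built into that scale. Below 1000 nt the median gene had 1 PacBio count over the 3 libraries, so the sign there was not interpreted. Level was not held fixed between bands.

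Shares of library counts were compared over the same bands. Genes of 600 to 1000 nt took 1.25%, 1.26% and 1.11% of PacBio counts, against 3.04%, 3.01% and 3.04% of Illumina counts. Genes of 2000 to 3000 nt took 9.99%, 7.96% and 7.66% of PacBio counts, against 9.77%, 9.68% and 9.74% of Illumina counts. Genes of 6000 to 10000 nt took 4.84%, 6.06% and 6.42% of PacBio counts, against 5.08%, 5.08% and 5.13% of Illumina counts, so that replicates 2 and 3 lay above Illumina. Without FLNA, which was left out after its values were seen, these genes took 4.08%, 4.57% and 4.80% of PacBio counts, against 4.66% of Illumina counts in each library. PacBio replicate 1 stood apart from replicates 2 and 3, with more counts between 1000 and 4000 nt and fewer from 6000 nt, whereas the Illumina libraries were alike. With overlapping genes left out, an alternative chosen after seeing the data, 36.5% of genes below 600 nt had a PacBio count and the medians there were −1.54, −1.78 and −1.76. The median gene there had 0 PacBio counts, so these medians depend on the 0.5 added to each count.

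Exon number went with detection among nuclear protein-coding genes with at least 20 ONT CPM. Among those of 1500 to 6000 nt, 14 of 23 genes with 1 exon had a PacBio count (60.9%), and 75.9% of 58 genes with 2 exons. The share was 82.5% for 3 to 5 exons, 92.9% for 6 to 10, 94.9% for 11 to 20 and 91.5% for 21 or more. The median transcript length was 2400 to 2559 nt in the bands up to 10 exons, 3005 nt at 11 to 20 and 4298 nt at 21 or more. Length was therefore not fully held fixed. Bands of GC content, taken at the same ONT level but over all transcript lengths, ranged from 81.3% to 86.2% below 65% GC, with 71.9% of 64 genes at 65% or more. The median transcript length fell from 3543.5 nt below 40% GC to 1260.5 nt at 65% or more. GC content and length were therefore not separated.

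Expression level as taken from the ONT libraries ordered the counts differently on the platforms. Over nuclear protein-coding genes, the mean Illumina count per gene went up through every ONT band, whereas the mean PacBio count did not. With the bands set by Illumina level instead, the mean PacBio count went up through every band, to 176.9 in the top one, so the pattern holds for ONT bands and not for Illumina bands. ONT and Illumina levels can differ widely within the top ONT band. DGKI, picked after its values were seen, had 5660 ONT CPM, against 371 to 382 Illumina CPM, and 0 PacBio counts. Genes of 5 to 20 ONT CPM had on average 9.75 PacBio counts over the 3 libraries, against 5531 Illumina counts. Genes of 100 to 200 CPM had 17.5 PacBio counts, against 13843 Illumina counts, and without FLNA 13.1 PacBio counts, against 12750 Illumina counts. Genes of 1000 CPM or more had 10.9 PacBio counts, against 40937 Illumina counts. The 126 genes of this top band took 1.03%, 0.968% and 0.873% of PacBio counts, against 4.71%, 4.71% and 4.66% of Illumina counts, and 114 of them were called lower and 2 higher (100 and 2 with library totals). Genes of 5 to 20 CPM took 30.7%, 31.3% and 32.2% of PacBio counts, against 23.4% to 23.5% of Illumina counts. Within 2000 to 3000 nt alone the mean PacBio count was 40.5 at 200 to 500 CPM and 15.3 at 1000 CPM or more. Per the file headers the PacBio counts come from clustered alignments, so that 1 count may stand for several reads. The part of clustering in these values was not tested.

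**Figure D4:**
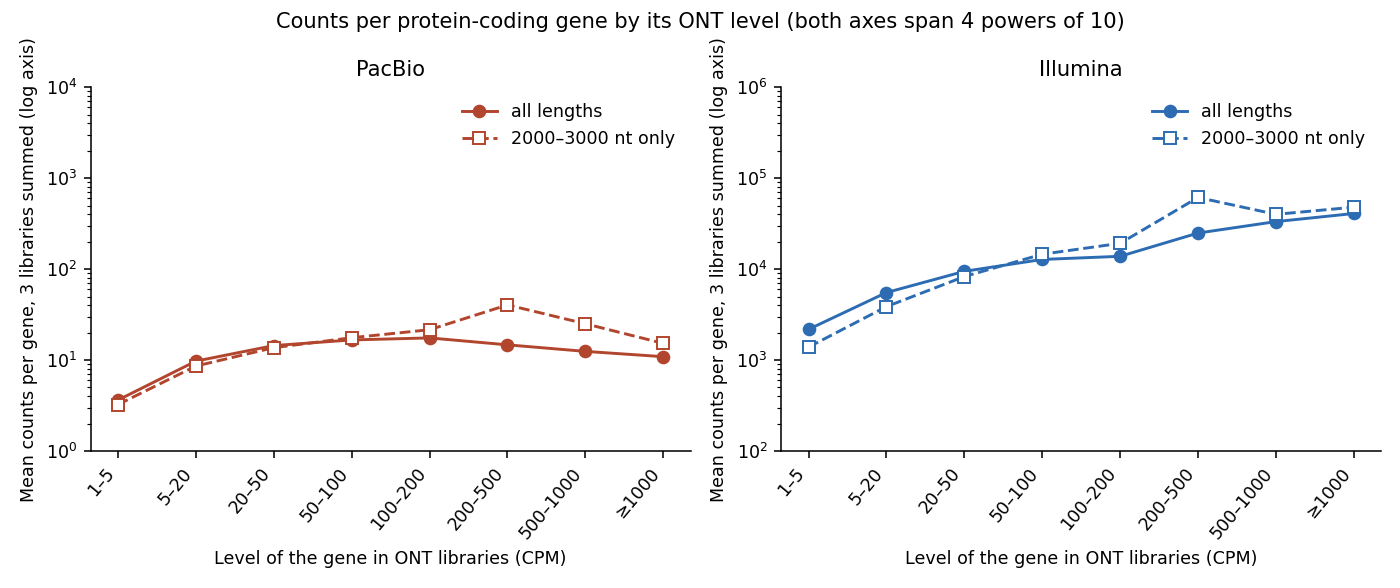
Mean counts per nuclear protein-coding gene (3 libraries summed, log axes of equal span) in PacBio (left) and Illumina (right), by the level of the gene in ONT libraries (CPM), for all lengths and for 2000 to 3000 nt. The PacBio mean was 17.5 at 100 to 200 CPM, or 13.1 without FLNA, and 10.9 at 1000 CPM or more, while the Illumina mean was 13843 and 40937. With bands set by Illumina level (not shown), the PacBio mean went up through every band.

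Protein synthesis genes were among the lowest groups. Of 79 cytosolic ribosomal protein genes, 73 were called lower by count and none higher (67 and none with library totals), and 78 were lower per length. Their median log2 count ratio was −3.84, with genes at 0 PacBio counts set at the bound given by 3 counts over the group, against 0.61 over all genes tested. With library totals the median was −3.12, against 1.33 over all genes. The medians over all genes rest in large part on such bounds, since 47.1% of the genes tested were at 0 PacBio counts. Of the 79 ribosomal protein genes, 25 were at 0. The medians are therefore not a like comparison, and a bound above 0 does not show a higher level in PacBio. Together they took 0.241%, 0.274% and 0.219% of PacBio counts, against 2.02% to 2.03% of Illumina counts. RPL4 had 10, 9 and 9 PacBio counts, against 25959, 29018 and 23584 Illumina counts (−2.60 ± 0.19), and RPS24 had 0, 1 and 0, against 17346, 18112 and 14249. RPL26, chosen after its values were seen, was at 0 in all PacBio libraries, against 14321, 15471 and 12437 Illumina counts, at least 30.5-fold lower. Other genes of like length and level were set beside them. Below 1000 nt and at 500 ONT CPM or more, 38 of 40 ribosomal protein genes were called lower (95.0%), beside 39 of 41 other genes (95.1%). From 2000 to 6000 nt at that level, 16 of 16 were called lower, with a median of −3.78, beside 51 of 66 other genes (77.3%), with a median of −2.14. The difference was not tested.

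Of 35 translation factors, 27 were called lower and 1 higher by count, with a median of −1.49 (−0.77 with library totals, 15 lower and 3 higher). Per length the median was −1.69 with TMM and turned to 0.02 with library totals. EEF2, which moves the ribosome along the mRNA, had 65, 55 and 49 PacBio counts, against 108967, 116807 and 98342 Illumina counts (−2.05 ± 0.11). The scaffold of the cap-binding complex, EIF4G1, had 50, 57 and 59 PacBio counts, against 24931, 26477 and 20512 Illumina counts, and was not called by count (0.09 ± 0.12). EIF4E, which binds the cap, was the member called higher, with 7, 5 and 5 PacBio counts, against 798, 976 and 741 Illumina counts (1.65 ± 0.39). EIF4E overlaps other annotated genes on both strands, so its counts are uncertain.

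Energy metabolism genes of both genomes were mostly called lower by count with TMM. The 15 mitochondrial genome transcripts of the list, and all 37 genes of chromosome M, had 0 PacBio counts, against 7.20% to 7.41% of Illumina counts for chromosome M. These 37 genes also had 0 counts in all 3 ONT libraries of the line. MT-ND4, a subunit of respiratory complex I, was listed at 0 in PacBio, against 376939, 444057 and 348457 Illumina counts, at least 843-fold lower, or at least 511-fold lower with library totals. The sources used here do not say if the PacBio counting took in mitochondrial alignments. Of 75 nuclear subunits of oxidative phosphorylation, 60 were called lower and none higher by count, with a median of −1.95 (−1.23 with library totals, 40 lower and none higher), and 30 had no PacBio count. ATP5F1B, the catalytic beta subunit of the ATP synthase, had 9, 9 and 7 PacBio counts, against 19273, 20672 and 17941 Illumina counts (−2.33 ± 0.21). SDHA, the flavoprotein of complex II, had 11, 10 and 7 PacBio counts, against 5902, 6159 and 4848, and was not called (−0.38 ± 0.25). Below 1000 nt and at 100 to 500 ONT CPM, 30 of 34 of these subunits were called lower (88.2%), beside 134 of 177 other genes (75.7%), a difference that was not tested. Of 18 glycolytic enzymes, 10 were called lower and 1 higher by count, with a median of −1.002 (−0.28 with library totals, 7 lower and 2 higher). PKM, the last enzyme of glycolysis, had 32, 34 and 26 PacBio counts, against 73086, 74442 and 65409 Illumina counts (−2.33 ± 0.13). PFKM, a phosphofructokinase, had 11, 9 and 12 PacBio counts, against 2579, 2671 and 2377 (0.95 ± 0.26, higher). PFKM overlaps SENP1 on the opposite strand.

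Very long mRNAs changed direction with the scale. Of 65 tested, 44 were called lower and none higher by count, with a median of −1.72 (−0.995 with library totals, 28 lower and 7 higher). Per length 19 were higher and 4 lower, with a median of 0.66 (2.37 with library totals). They took 2.05% of the counts of PacBio replicate 1 and 3.00% and 3.30% of replicates 2 and 3, against 2.25% to 2.33% of Illumina counts. FLNA alone held 1913 of their PacBio counts. The giant scaffold gene AHNAK had 24, 27 and 36 PacBio counts, against 69162, 77427 and 64537 Illumina counts. MACF1, which links microtubules to actin, had 2, 1 and 2 PacBio counts, against 10666, 12150 and 9829 Illumina counts. DYNC1H1, the heavy chain of cytoplasmic dynein with a transcript of 19940 nt, had 59, 91 and 78 PacBio counts, against 44469, 49658 and 40525 Illumina counts. Its ratio was −0.36 ± 0.10 by count, a call whose sign turned with library totals (0.36), and 2.36 ± 0.12 per length (edgeR adjusted p = 4.45e-16). ENSG00000258959, which overlaps DYNC1H1 on the opposite strand, had 59, 90 and 76 PacBio counts, so the counts of DYNC1H1 are uncertain. At 6000 nt or more and 1 to 20 ONT CPM, 27 of 38 very long mRNAs were called lower (71.1%), beside 595 of 1792 other genes (33.2%). At 20 to 100 ONT CPM it was 11 of 16 (68.8%), beside 147 of 302 (48.7%). At 100 to 500 it was 3 of 4, beside 36 of 56 (64.3%), and at 500 or more 2 of 2, beside 19 of 22 (86.4%). The band is open above 6000 nt and the list has a median transcript of 14731 nt, so length was not matched. The differences were not tested.

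With TMM, over 50% of the cytoskeletal, chaperone, proteasome, S100, MHC and lysosome lists was called lower by count. With library totals fewer were called lower in each list but S100. With TMM the lists had 56.2% (S100) to 75.0% (chaperones) called lower, at median levels of 64.81 to 165.27 ONT CPM. Of all nuclear protein-coding genes tested, 409 of 782 at 50 to 100 ONT CPM were called lower (52.3%). At 100 to 200 ONT CPM it was 278 of 426 (65.3%). Differences between these lists and other genes of like level were not tested. Of 34 cytoskeleton and annexin genes, 24 were called lower and none higher, with a median of −1.77 (−1.05 with library totals, 18 lower and 2 higher). The actin-sequestering peptide gene TMSB10, with a transcript of 461 nt, had 2, 0 and 1 PacBio counts, against 32016, 34023 and 25974 Illumina counts. ACTN1, an actin crosslinker with a transcript of 3722 nt, had 51, 56 and 51 PacBio counts, against 26078, 29196 and 24444 (−0.13 ± 0.12, not called). Of 16 S100 and metallothionein genes, 9 were lower and none higher, with a median of −2.10 (−1.38 with library totals, 9 lower and none higher), and S100A6 had 1, 0 and 1 PacBio counts, against 17850, 19039 and 16891. Of 32 chaperones, 24 were lower and none higher, with a median of −1.28 (−0.56 with library totals, 12 lower and 4 higher). From 2000 to 6000 nt and at 100 to 500 ONT CPM, 6 of 10 chaperones were called lower, beside 137 of 206 other genes (66.5%). HSPA5, the main chaperone of the endoplasmic reticulum, had 30, 26 and 16 PacBio counts, against 34773, 38363 and 32581 (−1.66 ± 0.15). CANX, a membrane-bound lectin chaperone with 49, 38 and 55 PacBio counts, against 24879, 28038 and 22119 Illumina counts, was not called by count (−0.19 ± 0.12). Of 31 proteasome subunits, 18 were lower and none higher, with a median of −1.62 (−0.89 with library totals, 11 lower and 1 higher). Of 25 genes of MHC class I and the lysosome, 15 were lower and 1 higher, with a median of −0.81 (−0.08 with library totals, 9 lower and 4 higher). PSAP, the precursor of the saposins, had 65, 55 and 55 PacBio counts, against 60322, 64077 and 58534 (−1.18 ± 0.12).

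Epithelial, matrix and receptor genes stood nearer to equality, and their medians turned with the scaling. Of 27 keratin and junction genes, 9 were called lower and none higher by count, with a median of −0.45 that turned to 0.28 with library totals (4 lower and 5 higher). The simple keratin gene KRT7 had 17, 21 and 11 PacBio counts, against 57938, 64952 and 56273 (−2.99 ± 0.15). DSP, desmoplakin, had 16, 36 and 42 PacBio counts, against 22182, 25220 and 20857, with replicate 1 again below the others. Of 28 collagen and matrix genes, 8 were lower and 2 higher, with a median of −0.13 that turned to 0.60 with library totals (4 lower and 9 higher), and per length 11 were higher and 5 lower. TIMP1, a short inhibitor of metalloproteases with a transcript of 769 nt, had 1, 0 and 1 PacBio counts, against 4611, 4631 and 4409.

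Of 33 genes of the EGFR and RAS pathway, 12 were called lower and 2 higher by count, with a median of −0.47 that turned to 0.25 with library totals (7 lower and 5 higher). EGFR, the mutated driver of this line, chosen after its values were seen, had 4, 11 and 13 PacBio counts, against 14945, 17312 and 15267 Illumina counts. It was called lower by count (−1.88 ± 0.24, edgeR adjusted p = 8.28e-07) and not called per length (−0.17 ± 0.29). ERBB2 was called higher with 25, 25 and 21 PacBio counts, against 5367, 5488 and 4680 (1.08 ± 0.18), and shares PacBio counts with MIEN1 as described above. MET, the hepatocyte growth factor receptor, had 17, 29 and 22 PacBio counts, against 14015, 14894 and 12459 (−0.40 ± 0.16, not called).

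Nuclear RNA processing genes and non-coding RNAs completed the lists. Of 31 splicing factors, 19 were called lower and none higher by count, with a median of −0.99 (−0.27 with library totals, 7 lower and 3 higher), and HNRNPK had 32, 40 and 44 PacBio counts, against 16925, 19162 and 15715 (0.05 ± 0.13, not called). Of 22 well-known long non-coding RNAs, 7 were lower and none higher, with a median of −0.94 (−0.22 with library totals, 6 lower). MALAT1, a nuclear-retained RNA of 10434 nt, had 0, 4 and 1 PacBio counts, against 10490, 10994 and 9349. NORAD, a cytoplasmic RNA that binds Pumilio proteins, had 2, 4 and 5 PacBio counts, against 16384, 16716 and 13943 (−3.21 ± 0.28). This stands beside the 16.2% of all tested long non-coding RNA genes called higher. As given above, most of those called higher share an exon with another gene. Of 22 small nucleolar RNA host genes, 8 were lower and none higher, with 15 at 0 in PacBio and a median of −0.86 (−0.14 with library totals, 4 lower). Of 21 immediate early and intronless genes, 11 were lower and 1 higher, with a median of −1.40 (−0.68 with library totals, 8 lower and 2 higher). JUN was the higher one, with 12, 8 and 10 PacBio counts, against 2284, 2681 and 2339 (0.92 ± 0.28), while SOX4 was at 0 in PacBio, against 5894, 6062 and 5094, at least 12.3-fold lower. Replication-dependent histone mRNAs, which end in a stem-loop and lack a poly(A) tail, had 23 PacBio counts over the whole list, and 26 of 37 tested were at 0. Of these 37, 6 were called lower (16.2%) and none higher, a share near the 16.9% of all genes, and 3 were lower and 1 higher with library totals. All 8 small structured RNAs tested were at 0 in PacBio and none was called by count.

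**Figure D5:**
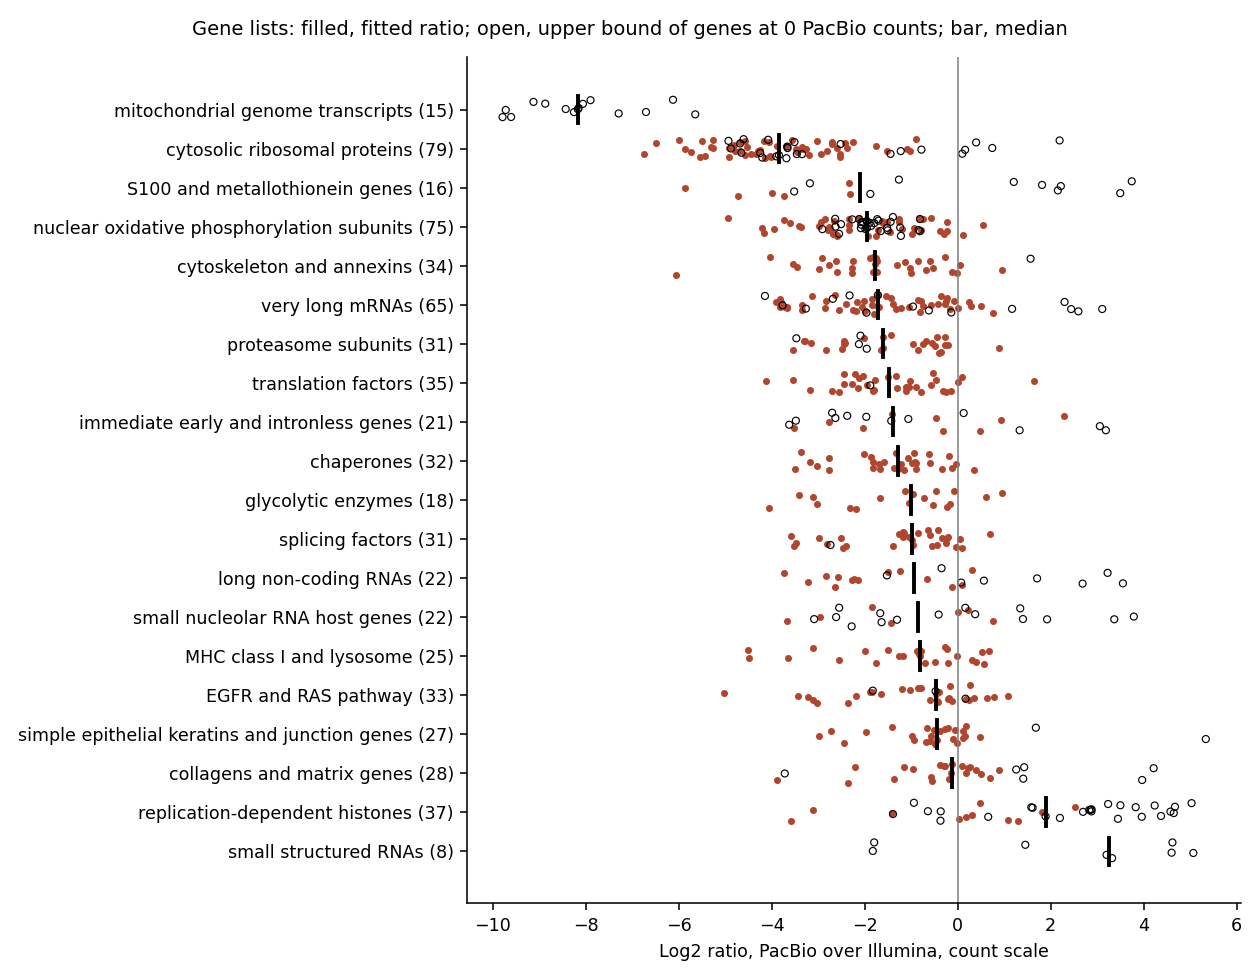
Log2 ratio of PacBio over Illumina on the count scale with TMM scaling for the genes of each list (number tested in brackets). Filled points are fitted ratios, open points are upper bounds of genes at 0 PacBio counts, and bars are medians, which ran from −8.17 for mitochondrial transcripts to 3.26 for small structured RNAs, where every point is a bound. With library totals the medians of the keratin, matrix and EGFR lists turn positive.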

How the data were processed

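Per the file headers and the values, the deposited files hold counts per gene with no normalization, and the PacBio counts come from clustered alignments. Per the submitters' processing notes, minimap2 2.17, featureCounts and the GRCh38 build were used, with no role given. The strand setting, the counting of multi-mapping reads and the annotation release were not given there. Counts of genes on both X and Y were added to the X copy. Symbols, lengths (canonical or longest transcript), exons and overlaps came from GENCODE 44, which held 58207 of the shared genes.

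Tests used edgeR 4.0.16 (quasi-likelihood, robust, TMM, filterByExpr with a minimum count of 10 and total of 15) in R 4.3.3, with Benjamini-Hochberg adjustment over all genes tested. The fit held 5 samples: PacBio replicate 1, PacBio replicates 2 and 3 summed, and the 3 Illumina libraries, with no replicate block. The per-length scale used log transcript length as an offset in Illumina samples. The SE is the absolute log2 ratio over the root of F. The fits were tested on simulated data. An exact permutation test of 3 against 3 libraries cannot go below 0.1. Bounds and floors (3 counts over the group) cover counting error only, and p-values measure the spread between these samples of 1 line.

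The pairing by replicate number comes from the design text. Over 918 genes with 30 or more PacBio counts, deviations of same-numbered libraries correlated at 0.0843, 0.1286 and 0.0329, against −0.1197 to 0.0497 for others.

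Named were the 10 highest and 10 lowest protein-coding ratios among called genes with the same direction in all 3 pairs (30 or more PacBio counts for higher, 10 or more for lower), 5 at each end per length, the leading genes by PacBio counts and by Illumina counts per length, genes at 0 PacBio counts, and up to 4 members of each list. Members and lists were chosen with earlier results of these data known. Alternatives were other scalings, filters, DESeq2 1.42.0, thinning, replicate blocks and left-out libraries.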

Additional observations from a re-analysis of the deposited data

Results flagged for a closer look

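Sequin spike-ins were left out of all comparisons. They had 18, 30 and 31 counts in PacBio replicates 1, 2 and 3, above the floor of 3 counts, against 607314, 743315 and 464257 in Illumina replicates 1, 2 and 3. These were 0.0436%, 0.0565% and 0.0616% of PacBio counts, against 1.62%, 1.82% and 1.37% of Illumina counts.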

How the results depend on the processing

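Depth is the main limit: 1 PacBio count decides detection for many genes. On the count scale, calls higher and lower in PacBio (1736 and 4151) became 3137 and 2079 with library totals, 1087 and 1571 with a mean of 50 CPM, 332 and 404 with Illumina thinned, and 330 and 1519 without overlapping genes, the last chosen after seeing the data. Per length (1972 and 6733) they became 5846 and 2371 with library totals, 413 and 443 with Illumina thinned, and 560 and 2852 without overlapping genes, while 1865 were lower with a mean of 50 CPM. The filter, the thinning and the removal of overlapping genes test fewer genes; for library totals the cause was not tested beyond the shift of the median. With 1 library left out, the ranges were 1176 to 1805 higher and 2817 to 4487 lower by count, and 1135 to 2099 higher and 5376 to 6908 lower per length. The higher calls per length were 1135 without PacBio replicate 2 and 1191 without PacBio replicate 3. The replicate block gave 1565 and 3714 by count and 1830 and 5876 per length, and moved no count of calls by over 1.5 times. DESeq2 gave 2136 and 3188 by count.

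By count, signs turned positive with library totals and with thinned Illumina counts for MYH9 (0.46 and 0.28), DYNC1H1 (0.36 and 0.26), CTNNB1 (0.28 and 0.14), DSP (0.059 and 0.28) and HNRNPU (0.17 and 0.15). Per length, signs turned with library totals for DELEC1 (0.69), UQCRC1 (0.014), OIP5-AS1 (0.58), TUG1 (0.38), PDIA6 (0.42), HSPA5 (0.43), PSMD2 (1.22, and 0.11 thinned), LMNA (0.94), PSAP (0.41) and JUNB (0.68), and with total exon length for DELEC1 (0.98), SNHG16 (0.31) and OIP5-AS1 (1.01). Other results for named genes kept their sign and side of the threshold in 1462 cases by count and 1617 per length. The call was lost in 61 cases by count and 29 per length, and gained in 39 and 17.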
